A study of Homo sapiens with 2 samples.

Results

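The tripartite motif (TRIM) genes were examined in Huh-7 cells, a human hepatoma line, 6 hours after exposure to interferon-alpha. The members are all genes whose symbol in the platform annotation is TRIM followed by a number and which have at least 1 probe set annotated to that gene alone. There are 57 such genes, read by 131 probe sets, among 19775 named genes on the array. One culture received recombinant human interferon-alpha 2b at 100 U/mL in fresh medium for 6 hours, after a first incubation of 24 hours, and the untreated culture had its medium exchanged. When the untreated culture was harvested is not stated in the labels. Each condition has 1 Affymetrix array, so the differences below have no replicate check and were not tested. The question was which TRIM transcripts of this line are measured at all, and which of them differ after interferon.

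TRIM proteins share a RING finger, 1 or more B-boxes and a coiled coil, followed by a variable C-terminal domain that selects the target. The RING finger makes most of them ubiquitin ligases, although a few members lack it. Several act in innate immunity, as restriction factors that bind incoming viruses or as ligases that switch the sensors of viral RNA and DNA on or off, and some of these are themselves induced by type I interferon. Others are transcriptional corepressors, RNA-binding proteins of the stem cell state, microtubule-associated proteins or muscle proteins.

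Facts of the arrays that touch these values are few. The deposited intensities are linear, and a floor was set at their median over both arrays, 48.46, below which a value was raised to the floor, so that a ratio against it is a bound. Ratios are interferon over untreated, and their median on the log2 scale was 0.03 over the 13269 genes above the floor on at least 1 array, called counted genes here. Each of the 18 hybridisation control probe sets read higher with interferon, by a median of 0.43 on the log2 scale; their part in the results was examined by centring on them. Hepatocyte markers were bright on both arrays, with 7 of 7 measured markers above the floor, whereas the leukocyte markers PTPRC, CD3E and NKG7 and the endothelial markers CDH5, KDR and TEK were below it on both. The other leukocyte markers measured, CD79A, CD14 and LYZ, and the endothelial markers PECAM1 and VWF were above it on both. The 6 leukocyte markers summed to 2494 with interferon and 2317 untreated, most of it from LYZ, and the 5 endothelial markers to 292 with interferon and 325 untreated. Of the 6 stellate cell and fibroblast markers, COL1A1, COL1A2 and PDGFRB were above the floor on both arrays. COL3A1 was below it on the interferon array, at 48.1 against 51.3 untreated, and LUM and DCN were below it on both. The 6 summed to 987.3 with interferon and 975.2 untreated, most of it from COL1A2 (560 with interferon and 544 untreated). Of the counted markers in these 3 lists, 0 were 2-fold higher or lower, and their part in the results was not tested. In cultures measured in bulk, fewer cells with a transcript and less RNA per cell cannot be told apart.

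Of the 57 TRIM genes, 44 were counted and 13 lay under the floor on each array. Among the 44, TRIM25, TRIM14, TRIM69, TRIM56 and TRIM5 (5 genes) were higher with interferon by 2-fold or more, and 0 were lower by that much. That is 11.4% of the counted members, beside 0.43% of all counted genes in the upward direction and 0.0% in the downward one. At 1.5-fold, 7 members (15.9%) were higher and 0 were lower, beside 0.754% and 0.0829% of all counted genes. TRIM21 is among the 7 by a bound only, since its untreated value was below the floor and it was counted through the interferon array. The ratio was above 0 in 28 of the 44 (63.6%), near the 58.5% of all counted genes. The median log2 ratio of the counted members was 0.08, and it was 0.05 in the 37 members under 1.5-fold. Centring on the hybridisation controls left 3 of 46 counted members at least 2-fold higher (TRIM25, TRIM14 and TRIM69). Over all genes, 44 were then 2-fold higher and 6 lower, beside 57 and 0 without centring. Centring also turned the members' median to -0.33, where that of all counted genes was -0.38.

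**Figure D1:**
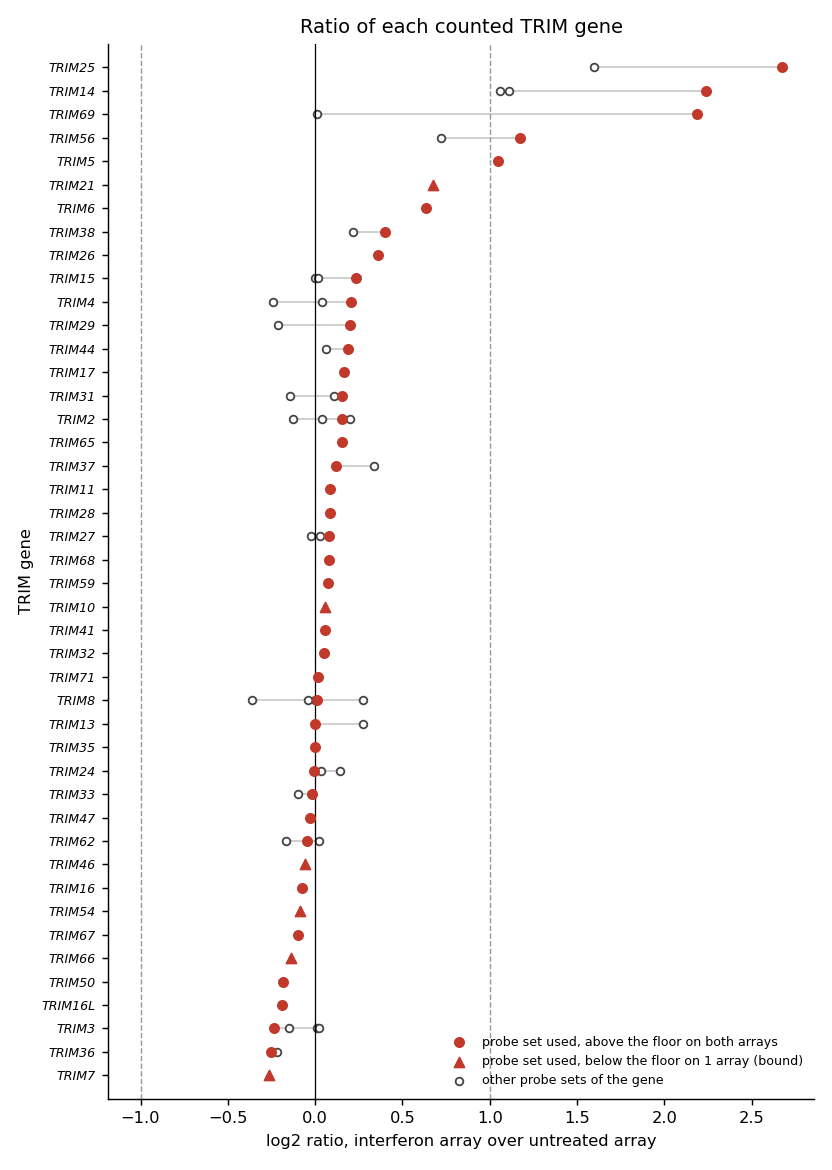
Log2 ratio, interferon over untreated (x axis), for each of the 44 counted TRIM genes (y axis, highest ratio at the top). Red marks are the probe set used, triangles are bounds, open circles are the gene's other counted probe sets, and dashed lines mark 2-fold; TRIM25, TRIM14, TRIM69, TRIM56 and TRIM5 lie right of the upper line and no gene lies left of the lower one.

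The ligases and adaptors of nucleic acid sensing held the highest ratio. TRIM25, a ligase for ubiquitin and ISG15 that modifies the RNA sensor RIG-I, had an intensity of 2179.8 on the interferon array, against 341 on the untreated array, which is 6.39-fold higher (log2 2.68). Its other probe set read 269 with interferon and 88.8 untreated, 3.03-fold higher. Both probe sets were thus past 2-fold and both were above the floor on each array, with the brighter one giving the larger ratio. Its ratio ranked 17th of the 13269 counted genes.

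TRIM14, an adaptor without a RING finger that sits at mitochondria with the signalling protein MAVS, had 1044 with interferon and 221 untreated, 4.72-fold higher (log2 2.24). Its other counted probe sets read 183 and 142 with interferon, against 87.8 and 65.8 untreated, or 2.08-fold and 2.15-fold higher. All 3 counted probe sets were past 2-fold, the brightest by the most, and their median log2 ratio was 1.11. The remaining TRIM14 probe sets were below the floor, at 40.5 and 11.4 with interferon and 26.2 and 9.96 untreated. TRIM56, a ligase linked to the DNA sensing proteins cGAS and STING, had 333 with interferon and 148 untreated, 2.25-fold higher (log2 1.17). Its other probe set, at 120.0 with interferon and 72.8 untreated, was 1.65-fold higher and so under 2-fold. The direction was shared by both TRIM56 probe sets, and their median log2 ratio was 0.95.

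TRIM69, a RING ligase reported to restrict vesicular stomatitis virus, had 249 with interferon and 54.7 untreated, 4.55-fold higher (log2 2.19). This rested on 1 probe set. A further probe set lay at the floor, with 48.7 on the interferon array and 45.3 on the untreated array (log2 0.01), and the last was below it at 14.4 with interferon and 16.7 untreated. TRIM69 therefore had the widest spread between counted probe sets of any member, 2.18 on the log2 scale.

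TRIM5, which binds the capsid of retroviruses, had 402 with interferon and 195 untreated, 2.07-fold higher (log2 1.05). Its only other probe set never reached the floor, at 21.8 with interferon and 16.2 untreated. The TRIM5 value lies so close to 2-fold that it was under it with quantile scaling (log2 0.99), with a pseudocount of 16 (0.99) and with centring on the hybridisation controls (0.62). TRIM21, a cytosolic antibody receptor that sends antibody-coated virus to the proteasome, had 77.4 with interferon and 37.3 untreated. The untreated value is below the floor, so the gene was at least 1.60-fold higher (2.08-fold without a floor), a bound that became a log2 ratio of 1.05 when the 40th percentile served as the floor and 0.07 when the 60th did. TRIM6, a ligase that makes the free ubiquitin chains used by the kinase IKKepsilon, had 361 with interferon and 233 untreated, 1.55-fold higher (log2 0.63). TRIM21 and TRIM6 have 1 probe set each, so neither has a second reading.

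**Figure D2:**
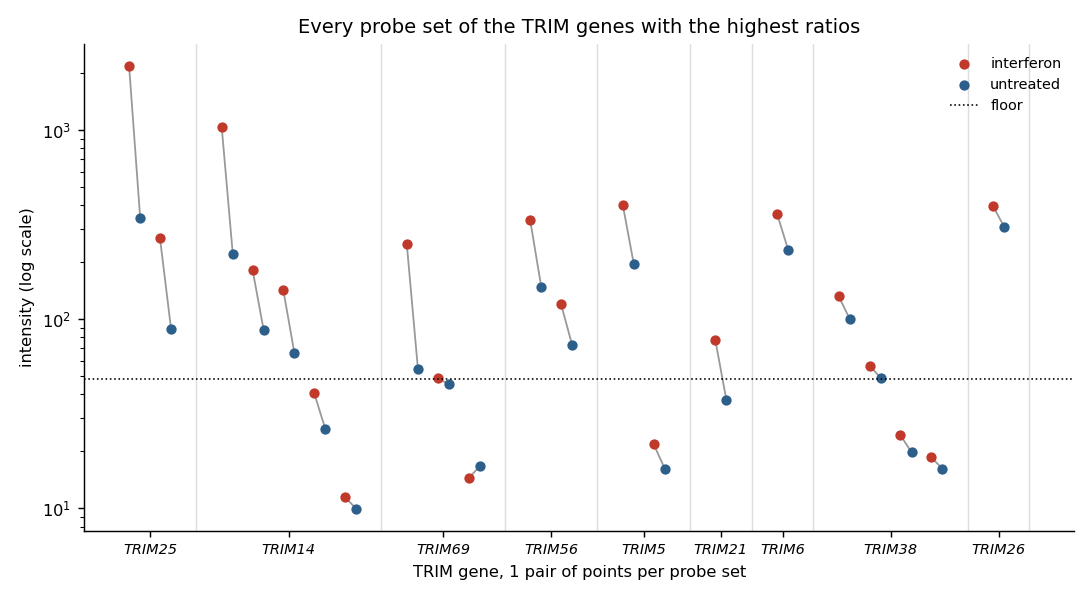
Intensity on a log axis of every probe set of the 9 TRIM genes with the highest ratios, interferon (red) left of untreated (blue) in each pair, with the floor of 48.46 dotted. All pairs of TRIM25 and TRIM56 and the 3 brightest of TRIM14 are higher with interferon and above the floor on both arrays, whereas this holds for 1 of 3 TRIM69 pairs.

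TRIM38 and TRIM26 followed below 1.5-fold. TRIM38, a regulator of inflammatory and sensing pathways, had 132 with interferon and 99.9 untreated, 1.32-fold higher, and its other counted probe set was 1.16-fold higher. TRIM26, a ligase encoded in the MHC region, had 396 with interferon and 308 untreated on its only probe set, 1.28-fold higher. Both changed sign after centring on the hybridisation controls, to log2 ratios of -0.03 for TRIM38 and -0.07 for TRIM26. For scale, the genes read above the floor on each array were divided by brightness into 10 groups of equal size. The log2 ratios of these genes, 0.40 for TRIM38 and 0.36 for TRIM26, lay above the central 95% of their group, which ended at 0.37 for TRIM38 and 0.27 for TRIM26. Of the 44 counted members, 9 lay above that range of their group, 35 lay within it and 0 lay below it, where 2.51% of the genes so divided lie on each side by construction. The 9 are the genes named so far, with TRIM21 placed by its bound. This range is a spread between genes of the same 2 arrays and not a replicate error.

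The promoters of the higher members were compared because type I interferon acts through a DNA element, the interferon-stimulated response element (ISRE), that the factor ISGF3 binds. RefSeq windows from 250 bases before to 50 bases after the annotated start (GRCh38.p14) were found for 43 of the 57 members. They were searched on both strands for the core of that element, GAAA and GAAA with 2 bases of any kind between them. The core was present in 3.57% of all 35116 promoter windows, and 4.38% of the 27305 genes had it in at least 1 window. Among the 7 members at least 1.5-fold higher, 4 had it (TRIM14, TRIM69, TRIM5 and TRIM21, the last placed by its bound). Among the 27 counted members under 1.5-fold with a window it was found in 4 (TRIM26, TRIM44, TRIM2 and TRIM16), and among the 9 with a window that were below the floor on both arrays in 0. A match describes letters in the window and is not a binding site shown in these cells. The 250 bases before the start are given for the 5 members past 2-fold, all 5′ to 3′ on the gene's strand, with each match to the core in either orientation in capitals.
TRIM25, chr17:56914050-56914299, minus strand: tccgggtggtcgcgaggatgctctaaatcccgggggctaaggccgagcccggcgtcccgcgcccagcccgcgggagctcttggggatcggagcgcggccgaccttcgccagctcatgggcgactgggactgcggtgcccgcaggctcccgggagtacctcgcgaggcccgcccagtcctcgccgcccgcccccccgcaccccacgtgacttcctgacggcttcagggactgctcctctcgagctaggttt
TRIM14, chr9:98119223-98119472, minus strand: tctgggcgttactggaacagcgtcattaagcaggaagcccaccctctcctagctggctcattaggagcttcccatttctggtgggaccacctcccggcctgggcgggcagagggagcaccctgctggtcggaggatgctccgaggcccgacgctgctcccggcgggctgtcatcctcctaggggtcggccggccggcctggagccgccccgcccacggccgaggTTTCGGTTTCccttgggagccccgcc
TRIM69, chr15:44736278-44736527, plus strand: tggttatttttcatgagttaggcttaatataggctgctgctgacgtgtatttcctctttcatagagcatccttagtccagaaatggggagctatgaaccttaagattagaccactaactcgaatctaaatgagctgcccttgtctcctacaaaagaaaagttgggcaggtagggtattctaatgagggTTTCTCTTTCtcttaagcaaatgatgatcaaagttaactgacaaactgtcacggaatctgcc
TRIM56, chr7:101085231-101085480, plus strand: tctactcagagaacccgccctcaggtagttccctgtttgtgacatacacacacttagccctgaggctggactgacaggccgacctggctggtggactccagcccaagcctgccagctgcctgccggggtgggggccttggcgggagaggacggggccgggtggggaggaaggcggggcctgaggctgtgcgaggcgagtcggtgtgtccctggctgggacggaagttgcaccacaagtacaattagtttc
TRIM5, chr11:5685075-5685324, minus strand: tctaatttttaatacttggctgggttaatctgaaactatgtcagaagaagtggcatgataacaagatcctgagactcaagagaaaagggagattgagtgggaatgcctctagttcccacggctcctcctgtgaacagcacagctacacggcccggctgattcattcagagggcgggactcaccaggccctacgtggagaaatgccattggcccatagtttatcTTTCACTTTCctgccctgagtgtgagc

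TRIM14, TRIM69 and TRIM5 each carried 1 match, on the strand opposite to the gene. In TRIM14 it ran from base -26 to base -17 before the start, in TRIM5 from base -27 to base -18, and in TRIM69 from base -62 to base -53. TRIM44, whose log2 ratio was 0.19, also held it close to the start, from base -35 to base -26, so this position was not confined to the higher members. In TRIM16 it ran from base -80 to base -71 and in TRIM2 from base -217 to base -208. TRIM25 and TRIM56 had no match to these letters in the window, and neither did TRIM6 or TRIM38. For TRIM21, TRIM26 and TRIM34 a shorter stretch is shown, because overlapping matches or the place of the match differ from the 3 above.
TRIM21, chr11:4393663-4393692, minus strand: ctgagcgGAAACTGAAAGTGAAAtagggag
TRIM26, chr6:30213563-30213622, minus strand: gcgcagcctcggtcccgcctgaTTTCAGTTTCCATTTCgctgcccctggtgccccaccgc
TRIM34, chr11:5624886-5624945, plus strand: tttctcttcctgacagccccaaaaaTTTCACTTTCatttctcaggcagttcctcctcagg

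In TRIM21 there were 2 overlapping matches, downstream of the annotated start, between base 18 and base 33. TRIM26 also had 2 overlapping matches, farther upstream, between base -194 and base -179. In TRIM34, which has no probe set of its own, 1 match lay between base -90 and base -81.

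**Figure D3:**
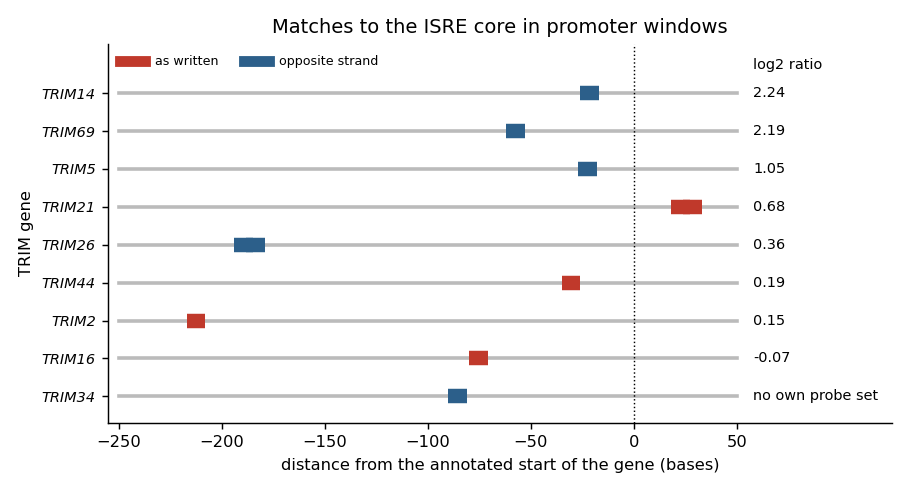
Position of each match to the ISRE core (x axis, bases from the annotated start of the gene, dotted at 0) in the windows of TRIM genes that have one, with the gene's log2 ratio at the right. Blue marks lie on the strand opposite to the gene and red marks on its own strand; the marks of TRIM14, TRIM5 and TRIM44 lie closest before the start and those of TRIM21 after it.

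The interferon-linked list, 14 TRIM genes described elsewhere as induced by interferon, contained all 7 members at least 1.5-fold higher. It was drawn up with earlier results of these data known. It is therefore no independent evidence of direction or of a difference from the other members. With a probe set of their own were 13, of which 11 were counted, 5 were at least 2-fold higher and 0 were lower by that much. Over all counted genes these shares were 0.43% and 0.0%. The median log2 ratio of the 11 was 0.68, and it was 0.02 over the 33 counted members outside the list, which ran from -0.26 to 0.23. The way the list was drawn up may set this contrast. The listed members that did not reach 1.5-fold were TRIM38, TRIM26, TRIM31 (log2 0.16) and TRIM35, whose value was 70.5 on both arrays. TRIM22, an interferon-induced restriction factor in many cell types, was below the floor at 13.2 with interferon and 8.50 untreated, and TRIM58 was below it at 11.9 with interferon and 13.0 untreated.

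TRIM5, TRIM6, TRIM34 and TRIM22 lie next to each other on chromosome 11 (GRCh38.p14), with the read-through gene TRIM6-TRIM34 among them and olfactory receptor genes on both sides. Their readings differed: TRIM5 was 2.07-fold and TRIM6 1.55-fold higher, while TRIM22 was below the floor on both arrays. TRIM21, TRIM68, TRIM3 and TRIM66 are on the same chromosome and complete the chromosome 11 list. The other counted members on this chromosome, TRIM29 and TRIM44, were not listed and had log2 ratios of 0.20 and 0.19. Of 6 counted genes in the list, 3 were at least 1.5-fold higher (TRIM5, TRIM6 and, by its bound, TRIM21), beside 0.754% of all counted genes. The list was drawn up with earlier results of these data known, so this count is no independent evidence. The ratio was 0.08 on the log2 scale for TRIM68, -0.14 for TRIM66 and -0.24 for TRIM3. In the MHC region list, on chromosome 6, 6 genes were counted and 0 reached 1.5-fold. In a list this short 0 is near the share of all counted genes, 0.754% higher and 0.0829% lower. Their log2 ratios ran from 0.06 for TRIM10 to 0.40 for TRIM38, with TRIM27, TRIM31, TRIM15 and TRIM26 between.

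Of 15 listed regulators of nucleic acid sensing, 14 had a probe set of their own, and TRIM23 was not analysed here. All 14 were counted, of which 3 were at least 2-fold higher (TRIM25, TRIM14 and TRIM56), beside 0.43% of all counted genes. TRIM21 had a bound between 1.5-fold and 2-fold. None was lower by 1.5-fold, beside 0.0829% of all counted genes. This list was also drawn up with earlier results of these data known, so these counts are no independent evidence. The 9 members of this list outside the interferon-linked list had log2 ratios between 0.00 and 0.20. All members past 1.5-fold are in the interferon-linked list, drawn up with earlier results known, so none of the 9 could exceed that. TRIM4, another ligase for RIG-I, had 269 with interferon and 234 untreated. TRIM65, a ligase for the RNA sensor MDA5, had 192 with interferon and 172 untreated, and TRIM44, which stabilises MAVS, had 358 with interferon and 313 untreated. These 3 genes lay at log2 ratios of 0.20, 0.15 and 0.19, inside the range of genes of like brightness, and the TRIM4 probe sets ran from -0.24 to 0.20. TRIM32, which modifies STING, had 168 with interferon and 162 untreated. TRIM11 and TRIM27, which act on the kinase TBK1 and related kinases, had 279 and 448 with interferon and 264 and 424 untreated.

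The partners of TRIM25 in RIG-I signalling and ISG15 conjugation included sensors and conjugation enzymes with high ratios and adaptors with ratios near 0. Of 12 counted partners, 7 were at least 2-fold higher and 0 were lower by that much, beside 0.43% and 0.0% of all counted genes. IFIH1 is among the 7 by a bound, with 472 on the interferon array and 9.64, below the floor, on the untreated array. This list, too, was drawn up with earlier results of these data known, so the count is no independent evidence. The RIG-I gene itself (RIGI) had 374 with interferon and 63.4 untreated, 5.90-fold higher in its chosen probe set and past 2-fold in all 3. ISG15, which TRIM25 can attach to proteins, was 23.7-fold higher, and its E2 enzyme UBE2L6 was 3.87-fold higher. MAVS, TRAF3, TRAF6, TBK1 and IRF3, which carry the signal onward from the sensors, had log2 ratios between -0.02 and 0.13. RNF135, another ligase known to activate RIG-I, lay under the floor on each array, at 19.2 with interferon and 18.2 untreated. So did IRF7, at 39.8 with interferon and 41.1 untreated.

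**Figure D4:**
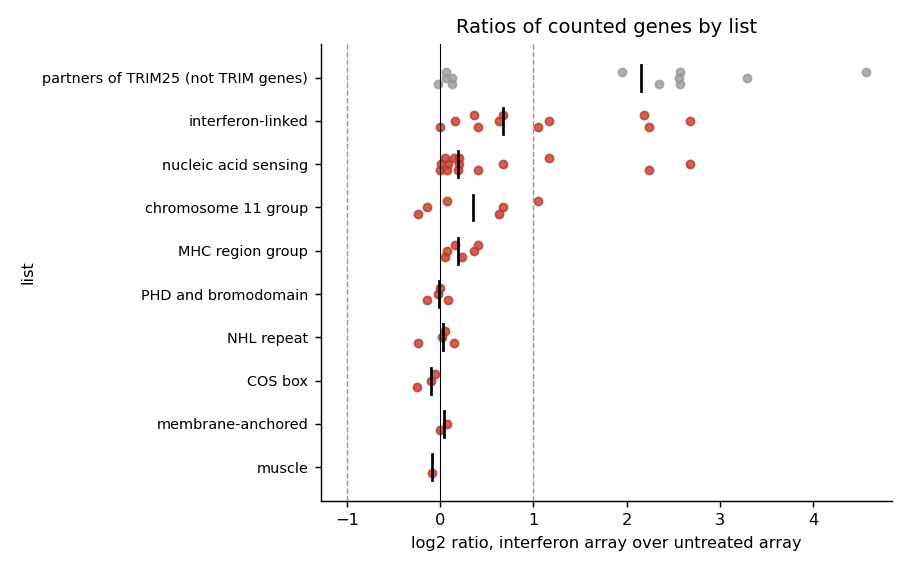
Log2 ratio, interferon over untreated (x axis), for the counted genes of each list (y axis), 1 point per gene, with the list's median as a black bar and dashed lines at 2-fold. Points right of the upper line occur for the partners of TRIM25, the interferon-linked, the nucleic acid sensing and the chromosome 11 lists, and the PHD and bromodomain, NHL repeat, COS box, membrane-anchored and muscle lists lie between -0.25 and 0.15.

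The 4 genes with a PHD finger and bromodomain and the 4 with NHL repeats were all counted, and 0 of them reached 1.5-fold. Over all counted genes 0.754% were higher and 0.0829% lower by that much, so a count of 0 does not set these groups apart. TRIM28, the corepressor KAP1 of KRAB zinc finger proteins, had 4898 with interferon and 4626 untreated (log2 0.08). Its relatives TRIM24 and TRIM33, which carry the same PHD finger and bromodomain, had log2 ratios of -0.01 and -0.02, and their counted probe sets lay between -0.10 and 0.14. TRIM66, the fourth of this group, was below the floor on the interferon array at 47.8, against 53.4 untreated. TRIM71, an NHL repeat protein of the stem cell and embryonic state that binds RNA, had 1529 with interferon and 1509 untreated (log2 0.02). The group of NHL repeat proteins (TRIM2, TRIM3, TRIM32 and TRIM71) had a median log2 ratio of 0.03 and ran from -0.24 for TRIM3 to 0.15 for TRIM2. TRIM37, a MATH domain ligase of centrosomes and peroxisomes, had 803 with interferon and 741 untreated (log2 0.12). Its other probe set, at 76.6 with interferon and 60.7 untreated, had a higher log2 ratio of 0.34.

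Of the 4 microtubule-associated COS box genes 3 were counted, and 0 reached 1.5-fold in either direction. The shares of all counted genes past 1.5-fold were 0.754% higher and 0.0829% lower, so this count too is near them. TRIM36 had 96.9 with interferon and 115 untreated, 1.19-fold lower (log2 -0.25), and its other counted probe set, below the floor with interferon, had a bound of -0.22. TRIM67 had 133 with interferon and 142 untreated, TRIM46 was near the floor at 43.7 with interferon and 50.4 untreated, and TRIM9 was below it. TRIM3 had 64.2 with interferon and 75.7 untreated, 1.18-fold lower, but its probe sets ran from -0.24 to 0.02. TRIM7, which binds glycogenin, had the lowest log2 ratio of the family, a bound of -0.26, at 47.5 with interferon and 58.2 untreated. TRIM50 had a log2 ratio of -0.19, and so did TRIM16L, a transcribed pseudogene close in sequence to TRIM16 (log2 -0.07). Whether its probe set also reads TRIM16 was not tested. The 5 lowest ratios above the floor on both arrays, of TRIM36, TRIM3, TRIM16L, TRIM50 and TRIM67, all lay within the range of genes of like brightness. After centring on the hybridisation controls they ran from -0.68 to -0.53.

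Baseline intensity varied widely between TRIM probe sets, but intensities of different probe sets are not on a common scale and are given as bands only. On the untreated array 42 of the 57 members were above the floor, and 40 were on the interferon array. With the probe sets used, 15 untreated values were below the floor, 16 lay between it and 100, 11 between 100 and 200, 11 between 200 and 500 and 4 above 500. The 4 above 500 belonged to TRIM28, TRIM71, TRIM37 and TRIM24. Of the muscle TRIM genes, TRIM63, TRIM55 and TRIM72 lay under the floor on each array, and TRIM54 was near it at 47.3 with interferon and 51.4 untreated. Also below it on both arrays were TRIM9, TRIM22, TRIM40, TRIM42, TRIM45, TRIM51, TRIM52, TRIM58, TRIM61 and the pseudogene TRIM64EP. These 13 genes had intensities between 9.98 and 47.0 with interferon and between 8.50 and 45.2 untreated, and none of them had another probe set above the floor. Whether they are expressed at a low level cannot be read from these values.

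**Figure D5:**
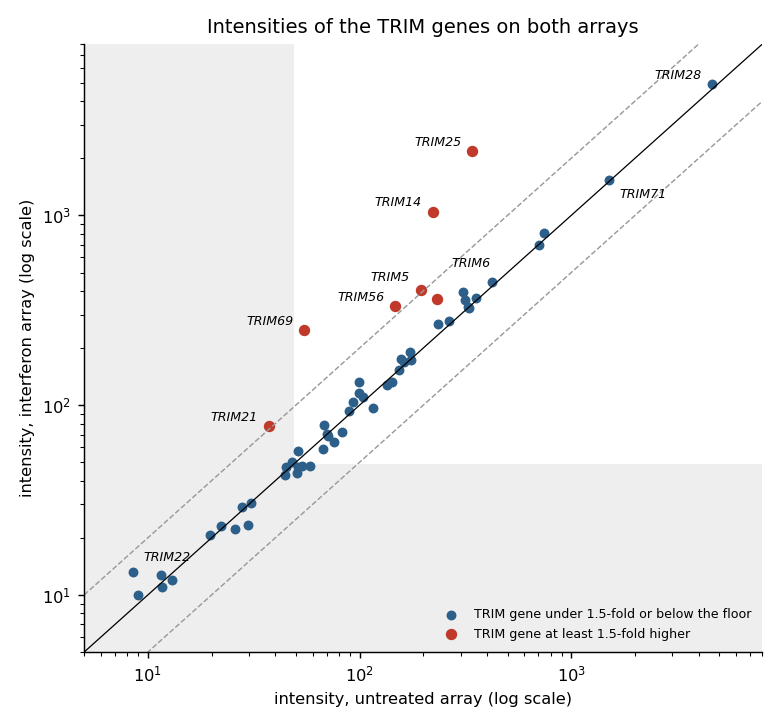
Intensity of each of the 57 TRIM genes on the untreated array (x axis) and the interferon array (y axis), both on log scales, for the probe set used. The grey bands lie below the floor of 48.46, the solid line marks equal values and dashed lines mark 2-fold. The 7 genes at least 1.5-fold higher (red) stand above the diagonal, and the other counted genes lie along it. TRIM22, below the floor on both arrays, also stands above it, at 13.2 with interferon and 8.50 untreated.

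Agreement between probe sets could be examined in the 20 members with several counted probe sets, while 24 members had 1. The range of the log2 ratio within a member had a median of 0.27, against 0.14 over 6209 genes with several counted probe sets. Without the genes at least 1.5-fold higher it was 0.23 in 16 members and 0.14 in 6159 genes. In 9 of those 16 members the probe sets lay on both sides of 0. The share of all genes with such probe sets was not counted, and the ranges were not matched for number of probe sets or brightness. The widest was TRIM8, a regulator of cytokine and NF-kB signalling, whose 5 probe sets ran from -0.36 to 0.28 around the value of 0.01 on the probe set used. For TRIM8 the probe set with the lowest ratio had 84.0 with interferon and 108 untreated. Next among these 16 was TRIM4, whose 3 counted probe sets spanned 0.45. Of the 5 members past 2-fold, 4 had several counted probe sets, and in 2 of these, TRIM25 and TRIM14, every one was past 2-fold, beside 12 of 26 such genes on the whole array.

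Over single probe sets, 8 of the 79 counted member probe sets (10.1%) were at least 2-fold higher, beside 0.364% of all counted probe sets with 1 gene. Some probe sets had exactly the same value on both arrays, 5 of 131 (3.82%) among the members and 2361 (4.32%) over the array. They included the probe sets used for TRIM13, an ER-anchored ligase, and for TRIM35, and 1 each of TRIM8, TRIM15 and TRIM61. How these ties arose was not tested. The other counted probe set of TRIM13 had 68.8 with interferon and 56.8 untreated (log2 0.28), so its ratio of 0 rests on a tied value.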

How the data were processed

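RNA of 2 Huh-7 cultures, 1 treated with interferon-alpha and 1 untreated, was hybridised to 1 Affymetrix array each, from 6 µg of total RNA per the labels' protocols. The deposited intensity of each probe set is linear, as the authors made it with GCOS, per the submitters' processing notes. Its version, background correction and scaling are not given in those notes.

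Genes were named from the platform annotation, and 41037 of 41091 probe sets with 1 gene were matched by gene ID to current symbols. Of the rest, 1801 named several genes and 11721 none. A gene is represented by its brightest probe set, judged by the mean of the log2 values of both arrays, the interferon array included. The floor, a gene's being counted, and the bounds are defined with the results. Intensities were compared by ratio, with no test, since there is 1 array per condition. The number of arrays limits the precision.

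Named genes are members at least 1.5-fold changed, the 5 highest and 5 lowest ratios above the floor on both arrays, members whose probe sets disagree, and the lists. The members and lists were chosen with earlier results of these data known. Alternatives were other floors, a pseudocount, other scalings, other choices of probe set and a threshold of 1.5-fold. The scripts (Python 3.11.15, pandas 2.3.3, statsmodels 0.14.6) were tested on simulated data. The search for a further promoter element is not reported here.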

Additional observations from a re-analysis of the deposited data

Results flagged for a closer look

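TRIM34, a capsid-binding relative of TRIM5, is read only by probe sets that also name the read-through gene TRIM6-TRIM34, so it lies outside the comparison of genes with a probe set of their own. One of them had an intensity of 124 on the interferon array, against 53.7 on the untreated array, a log2 ratio of 1.21 (2.31-fold higher), and it is singled out because this signal lies in data that the comparison does not use. The other was below the floor, at 44.0 with interferon and 33.7 untreated. Which transcript, TRIM34 or TRIM6-TRIM34, the probe set reads was not tested.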

How the results depend on the processing

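No paired analysis was possible because each condition has 1 array. The count of 5 members at least 2-fold higher or lower was 3 after centring on the hybridisation controls (TRIM14, TRIM25 and TRIM69). Without probe sets ending in _x_at, _s_at or _a_at it was 3 (TRIM25, TRIM56 and TRIM69), where TRIM14 and TRIM5 had no counted probe set left. It was also 3 when every counted probe set had to pass 2-fold (TRIM14, TRIM25 and TRIM5), a rule chosen after seeing the data. TRIM5 met this rule with its only counted probe set, so no second reading was compared. The members' count was 7 with a threshold of 1.5-fold, TRIM21 by its bound, and between 4 and 6 under the other 8 alternatives, all of them higher. Over all genes, 57 were 2-fold higher with the main settings, 44 after that centring and 38 without those probe sets. At 1.5-fold 100 genes were higher, and between 50 and 62 were 2-fold higher under the other 8. For the rule on every counted probe set, the count over all genes was not made. The median log2 ratio of 0.08 was -0.33 after centring on those controls, which subtracts a constant, and between 0.02 and 0.10 under the other 9. The 42 members above the floor on the untreated array were 46 and 32 with the floor at the 40th and 60th percentile. Over the alternatives that gave a value, TRIM25 lay between 2.14 and 2.70 on the log2 scale, TRIM14 between 1.11 and 2.26 and TRIM69 between 1.10 and 2.21. These values were all past 2-fold, but TRIM14 had none without probe sets ending in _x_at, _s_at or _a_at. The 1.10 of TRIM69 is the median of its 2 counted probe sets, at 2.19 and 0.01. TRIM69 and TRIM56 did not pass the rule on every counted probe set. TRIM56 was under 2-fold in 2 settings (0.74 and 0.95) and TRIM5 in 3. Of 136 values of single genes under the alternatives, 26 moved by more than 0.13, the robust SD of all log2 ratios. Members near the floor are limited by their signal over background.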

Other observations

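Genes that encode TRIM proteins under other symbols were not members. PML (TRIM19), the organiser of PML nuclear bodies, had 455 with interferon and 158 untreated, 2.88-fold higher on the probe set used, but 1 of its 8 counted probe sets passed 2-fold, and the ratios went down to -0.40 on the log2 scale. MID1 and MID2, microtubule-binding COS box proteins, had log2 ratios of -0.16 and -0.04, and MEFV, TRIML1 and TRIML2 were below the floor on both arrays.

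On the array 13 probe sets name a TRIM gene together with another gene, and 5 of them were counted. They include the only probe sets of 11 further TRIM genes. Besides the TRIM34 probe set, probe sets naming TRIM39 and its read-through gene had 483 and 128 with interferon, against 477 and 138 untreated. The brighter of them also names the gene RPP21, and which transcript it reads was not tested. The near-identical TRIM73 and TRIM74 shared a probe set with 156 on the interferon array and 154 on the untreated array. The probe set shared by TRIM59 and its neighbour IFT80 had 142 with interferon and 116 untreated (log2 0.28), while the probe set of TRIM59 alone had a log2 ratio of 0.07.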
